A study of Mus musculus and Acomys cahirinus with 18 samples.

Results

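The genes described here are 9 markers and regulators of macrophages: the growth factor gene Csf1, its receptor gene Csf1r, the identity genes Adgre1, Cd68, Aif1 and Lyz2, the receptor tyrosine kinase genes Axl and Mertk, and the arginase gene Arg1. They were taken by gene symbol from 4 tables of kidney RNA sequencing that together hold 6385 distinct symbols among 8857 entries. All 9 were found, 5 of them in 4 tables (Csf1, Cd68, Aif1, Lyz2 and Axl), 1 in 3 tables (Adgre1) and 3 in 2 tables (Csf1r, Mertk and Arg1). The animals were adult wild type males of the spiny mouse Acomys cahirinus and of the C57BL/6 mouse. Their left ureter was tied (unilateral ureteral obstruction, in which urine backs up and injures the kidney) or they had a sham operation, and kidneys were perfused with saline before collection. Acomys groups were obstruction day 5 (9.9 to 10.4 weeks old), obstruction day 2 (10.3 to 14.3 weeks) and sham (9.9 to 14.3 weeks). Mouse groups were obstruction day 5 (10.1 to 14 weeks), obstruction day 2 (10.1 weeks) and sham (7 to 14 weeks). Each of these groups had 3 libraries, 18 in all.

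The deposited values are comparisons that the authors made of every obstructed group with sham animals of its species. Each table gives a log2 fold change, a mean expression (logCPM, the log2 of CPM, the same on both days of a species) and a false discovery rate (FDR). Only entries at an FDR under 0.05 are in the tables, so for an unlisted gene no change, a wide spread and no test cannot be told apart. In Acomys 1094 of 2500 entries on day 5 and 644 of 1765 on day 2 had no symbol, against 0 in mouse. A gene called not listed in Acomys may therefore also be among these entries. Values per library are not used here, and depth is unknown. A standard error (SE) of each fold change was therefore rebuilt from its FDR and rank. Throughout, a fold change is obstructed over sham. RNA came from whole kidney, where more macrophages and more of a transcript per macrophage cannot be told apart. Kidney markers were present in both species. Slc12a1, the sodium carrier of the thick ascending limb, was listed on day 5 at a logCPM of 9.61 in Acomys and 9.19 in mouse, and Umod, uromodulin, at 10.17 in Acomys.

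Macrophages depend on the growth factor CSF1, which binds the receptor kinase CSF1R on monocytes and macrophages and maintains their survival and proliferation; interleukin 34 is a second ligand of the same receptor. In kidney, resident macrophages lie between the tubules, and monocytes from blood join them after injury. Adgre1 encodes F4/80 and Aif1 encodes IBA1, both used to stain macrophages in mouse tissue. AXL and MERTK belong with TYRO3 to the TAM receptors, which recognise dying cells through the bridging proteins GAS6 and protein S.

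Most of these genes rose with obstruction in both species. On day 5, 7 of the 9 were listed as risen and 0 as fallen in Acomys, against 7 risen and 1 fallen in mouse. On day 2, 6 were risen and 0 fallen in Acomys, against 7 risen and 1 fallen in mouse. Among all listed entries, risen ones made up 78.6% of the Acomys table and 60.9% of the mouse table on day 5, and 89.9% of the Acomys table and 58.3% of the mouse table on day 2. Fallen entries were 21.4% of the Acomys table and 39.1% of the mouse table on day 5, and 10.1% of the Acomys table and 41.7% of the mouse table on day 2. In Acomys the share of rises among the members listed is thus read against a table that is itself mostly rises. The median log2 fold change of the members was 2.28 in Acomys and 2.98 in mouse on day 5, beside 1.95 and 1.14 over all entries of the Acomys and mouse tables. On day 2 the member median was 1.73 in Acomys and 2.04 in mouse, beside 1.99 and 1.03 over all entries of the Acomys and mouse tables. Among risen entries alone the table medians were 2.27 in Acomys and 1.89 in mouse on day 5, and 2.15 in Acomys and 1.70 in mouse on day 2. The Acomys members, all rises, thus lay at the median of the Acomys rises on day 5 and below it on day 2.

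**Figure D1:**
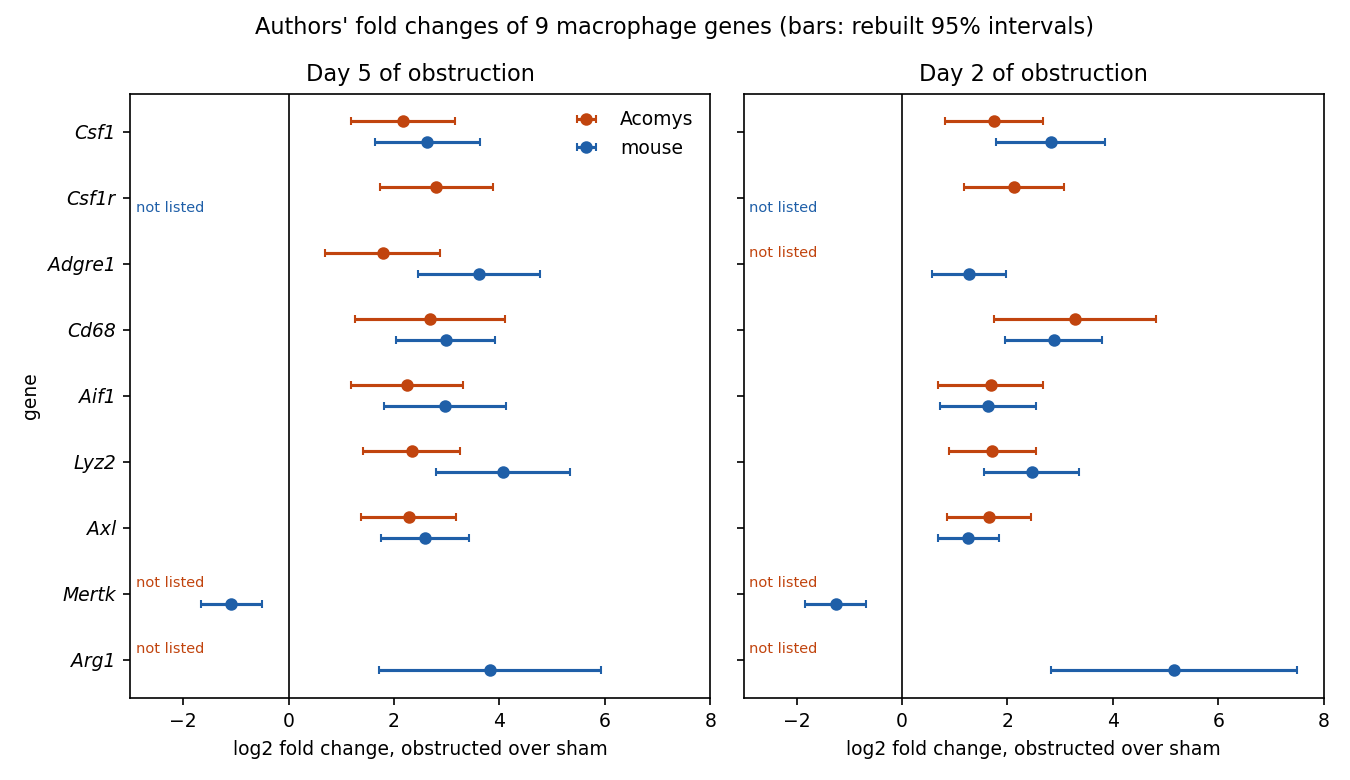
Log2 fold change of each member, obstructed over sham, on day 5 (left) and day 2 (right), with Acomys above mouse in each row; points are the authors' values and bars are rebuilt 95% intervals. Mertk in mouse lies left of 0 (-1.09 on day 5 and -1.26 on day 2), every other listed value lies right of it, and members with no entry in a table are written as not listed.

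The ligand gene Csf1 rose in all 4 comparisons. In the authors' deposited tables its log2 fold change was 2.17 ± 0.50 (rebuilt SE) in Acomys and 2.63 ± 0.51 in mouse on day 5, with FDRs of 0.00055 in Acomys and 3.1e-06 in mouse. On day 2 the authors' deposited tables gave 1.75 ± 0.47 in Acomys and 2.82 ± 0.53 in mouse. As linear folds these are 4.49-fold in Acomys and 6.21-fold in mouse on day 5, and 3.36-fold in Acomys and 7.07-fold in mouse on day 2. The values of the 2 days differed in mouse by less than the rebuilt error. The second ligand gene, Il34, was listed in 3 tables, at 2.21 in Acomys and 2.76 in mouse on day 5 and at 2.72 in mouse on day 2 in the authors' deposited tables. It was not listed in Acomys on day 2, and it was named after its values were seen.

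The receptor gene Csf1r was listed in both Acomys tables. The authors' deposited tables gave it a log2 fold change of 2.81 ± 0.55 (rebuilt SE, FDR 5.7e-05) on day 5 and 2.13 ± 0.48 (FDR 0.00038) on day 2 in Acomys, which are 7.00-fold and 4.37-fold. On day 5 it had the largest fold change of the 7 listed members in Acomys, and it ranked 61 by FDR among the 2500 entries. The mouse tables used here do not list it, so a species difference was not tested for it.

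Around these members, a list of 24 genes of the CSF receptors, their ligands and the myeloid transcription factors and kinases was read in each table. On day 5, 12 were risen and 0 fallen in Acomys (median log2 fold change 2.24), against 17 risen and 1 fallen in mouse (median 2.58). On day 2, 6 were risen in Acomys (median 1.95) and 15 in mouse (median 2.43), with 0 fallen in either. The authors' deposited tables placed Spi1, the gene of the myeloid factor PU.1, at 2.32 in Acomys and 3.12 in mouse on day 5, and at 1.56 in Acomys and 2.43 in mouse on day 2. At the high end stood Csf2rb, the shared receptor chain for GM-CSF, at 3.20 on day 5 and 2.53 on day 2 in Acomys. Beside it the authors' deposited tables placed Ptprz1, a phosphatase that also binds interleukin 34, at 3.96 on day 5 and 2.35 on day 2 in Acomys. In mouse the transcription factor gene Runx1 led the list, at 4.06 on day 5 and 3.51 on day 2 in the authors' deposited tables. The single fall was Maf, a transcription factor of resident macrophages that is also expressed outside them, at -1.02 in mouse on day 5 in the authors' deposited table. The Acomys locus assigned to Csf2rb carries the protein name of its close relative Csf2rb2, so that value may belong to either.

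The identity genes followed the same direction with different sizes. Adgre1, the F4/80 antigen, had a log2 fold change of 1.79 ± 0.56 (rebuilt SE, FDR 0.011) in Acomys and 3.61 ± 0.59 (FDR 1.1e-07) in mouse on day 5 in the authors' deposited tables. On day 2 it was not listed in Acomys and stood at 1.27 ± 0.36 (FDR 0.0017) in mouse. The mouse rise was thus 12.2-fold on day 5 and 2.42-fold on day 2. At the mean expression of Adgre1 in Acomys (logCPM 2.22, within 0.5), 197 entries were listed as risen on day 2, the smallest of them at 1.22 and the median at 2.17. The mouse value of that day, 1.27 at a logCPM of 4.10, lay near the smallest of these. Why Adgre1 was not listed in Acomys on day 2 was not tested.

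Cd68 encodes a lysosomal membrane protein of macrophages, and it was the member whose 4 values lay closest together among those listed everywhere. In the authors' deposited tables it stood at 2.69 ± 0.73 (rebuilt SE) in Acomys and 2.98 ± 0.48 in mouse on day 5, and at 3.28 ± 0.78 in Acomys and 2.88 ± 0.47 in mouse on day 2. Neither species nor day separated these values beyond their rebuilt errors. On day 2 it had the largest fold change among the Acomys members, where 24.3% of risen entries rose more. Icam1, an adhesion molecule for leukocytes, had a like pattern over the 4 comparisons, as did the cell cycle genes E2f7 and Bub1.

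For Aif1, the actin-binding protein IBA1, the authors' deposited tables gave 2.25 ± 0.54 (rebuilt SE) in Acomys and 2.97 ± 0.59 in mouse on day 5, and 1.68 ± 0.51 in Acomys and 1.63 ± 0.47 in mouse on day 2. On day 2 the species values lay 0.06 apart. Lyz2, the lysozyme of macrophages and other myeloid cells, stood at 2.33 ± 0.47 in Acomys and 4.07 ± 0.65 in mouse on day 5 in the authors' deposited tables. On day 2 it was at 1.71 ± 0.42 in Acomys and 2.46 ± 0.46 in mouse. The mouse day 5 value, 16.8-fold, was exceeded by 5.38% of the risen entries of that table, and the Acomys value of that day, 5.04-fold, by 47.3% of its own. The Acomys locus assigned to Lyz2 carries the protein name of the neighbouring paralogue Lyz1, which had its own mouse entry (3.51 on day 5 and 2.23 on day 2 in the authors' deposited tables, named after its values were seen), so how the copies were told apart is uncertain in both species.

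A wider list of 30 macrophage genes held these 4 among its members. On day 5, 25 were risen in Acomys (median 2.52) and 27 in mouse (median 3.51), with 0 fallen in either species. On day 2, 18 were risen in Acomys (median 2.23) and 25 in mouse (median 2.16), again with 0 fallen. In the authors' deposited tables Trem2, a lipid-sensing receptor of macrophages, was at 3.80 in Acomys and 4.96 in mouse on day 5 and at 3.03 in Acomys and 4.05 in mouse on day 2. The complement gene C1qb, a product of tissue macrophages, was at 3.77 in Acomys and 3.53 in mouse on day 5 and at 2.81 in Acomys and 2.03 in mouse on day 2 in the authors' deposited tables. It was named after its values were seen. Siglec1, the sialic acid receptor CD169, was the steepest of the list in mouse on day 5 at 5.21, against 2.19 in Acomys, in the authors' deposited tables. On day 5 the low end held Lgals3, the galectin 3 gene, in Acomys (1.34), and Cd84, a leukocyte surface receptor gene, was the lowest in mouse, in the authors' deposited tables.

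Promoter sequence was read for the members because most of them rose together. RefSeq (build GRCm38.p6, mouse) gave a window for 6 of the 9, namely Csf1, Cd68, Aif1, Lyz2, Axl and Mertk; Adgre1, Csf1r and Arg1 are named only. In the 250 bases before the gene start, 3 of the 6 (Cd68, Aif1 and Axl) held the core GAGGAA of PU.1, the factor encoded by Spi1, read on both strands (TTCCTC on the other). Among 32851 such mouse windows 23.3% held it. The AP-1 motif TGANTCA, which reads the same on both strands, was found in 1 of the 6 (Cd68, with 2 matches) and in 6.75% of all windows. These are matches of letters, not binding sites. The 4 windows below are printed 5′ to 3′ because they belong to 3 identity genes and Axl, all risen in 4 comparisons; capitals mark the PU.1 core and lower case the rest, and the Lyz2 window holds no match.
Cd68 (chr11:69666171-69666420, minus strand): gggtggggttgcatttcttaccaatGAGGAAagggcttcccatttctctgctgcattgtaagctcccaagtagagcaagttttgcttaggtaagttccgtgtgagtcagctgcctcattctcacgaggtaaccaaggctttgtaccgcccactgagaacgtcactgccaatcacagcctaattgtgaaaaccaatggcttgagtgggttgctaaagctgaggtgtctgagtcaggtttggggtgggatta
Aif1 (chr17:35176053-35176302, minus strand): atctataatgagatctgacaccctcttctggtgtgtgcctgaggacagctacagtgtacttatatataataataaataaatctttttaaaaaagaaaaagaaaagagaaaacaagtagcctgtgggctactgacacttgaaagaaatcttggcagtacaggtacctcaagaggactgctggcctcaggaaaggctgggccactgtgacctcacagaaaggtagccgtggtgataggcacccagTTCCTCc
Axl (chr7:25788734-25788983, minus strand): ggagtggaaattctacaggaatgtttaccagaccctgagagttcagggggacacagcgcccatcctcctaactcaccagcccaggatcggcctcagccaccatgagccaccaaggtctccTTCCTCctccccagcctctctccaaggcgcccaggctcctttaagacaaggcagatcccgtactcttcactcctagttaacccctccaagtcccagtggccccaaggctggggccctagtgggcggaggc
Lyz2 (chr10:117282273-117282522, minus strand): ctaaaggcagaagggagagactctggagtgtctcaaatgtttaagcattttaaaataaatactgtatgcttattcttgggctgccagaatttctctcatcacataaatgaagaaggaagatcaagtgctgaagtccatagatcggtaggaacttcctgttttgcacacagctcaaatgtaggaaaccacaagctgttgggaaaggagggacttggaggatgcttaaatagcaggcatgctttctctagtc
The match began 225 bases before the start in Cd68, 130 in Axl and 7 in Aif1.

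The TAM receptors moved apart in mouse. Axl, whose window is shown above, rose in every comparison. The authors' deposited tables gave it 2.28 ± 0.46 (rebuilt SE, FDR 8.4e-05) in Acomys and 2.59 ± 0.43 (FDR 1.4e-07) in mouse on day 5, and 1.65 ± 0.41 in Acomys and 1.26 ± 0.30 in mouse on day 2. These are 4.86-fold in Acomys and 6.01-fold in mouse on day 5, and 3.15-fold in Acomys and 2.39-fold in mouse on day 2. Mertk, the TAM receptor through which macrophages take up dying cells, was the only member listed as fallen. In the authors' deposited tables it stood at -1.09 ± 0.29 (FDR 0.00077) on day 5 and -1.26 ± 0.29 (FDR 0.00016) on day 2 in mouse, and it was not listed in Acomys on either day. Obstructed mouse kidneys thus had 0.471 of the sham level on day 5 and 0.419 on day 2. The third receptor gene, Tyro3, was listed in mouse at 1.14 on day 5 and 1.09 on day 2 in the authors' deposited tables and was not listed in Acomys.

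Of 25 genes of these receptors and of the uptake of dying cells, 11 were risen and 0 fallen in Acomys on day 5 (median 1.87), against 16 risen and 3 fallen in mouse (median 1.51). On day 2, 10 were risen and 0 fallen in Acomys (median 1.59), against 13 risen and 1 fallen in mouse (median 1.21). Pros1, the bridging protein S, was at 1.65 in Acomys and 2.07 in mouse on day 5 and at 1.52 in Acomys and 1.75 in mouse on day 2 in the authors' deposited tables. Gas6, the other bridging ligand, was not listed in any of the 4 tables. Pros1, Gas6 and Tyro3 were named after their values were seen. Timd4, a phosphatidylserine receptor of resident macrophages in mouse, was the steepest in Acomys, at 7.08 on day 5 and 6.38 on day 2 in the authors' deposited tables, and was not listed in mouse. Its logCPM was low (0.65), and several Acomys loci carry names of the same family, so its identity is uncertain. The mouse list was led by Havcr1, the tubule injury receptor KIM-1, at 8.19 on day 5 and 8.60 on day 2 in the authors' deposited tables. Beside Mertk, the falls in mouse on day 5 were Stab2 (-1.81) and Cd36 (-1.33), both scavenger receptor genes, in the authors' deposited table.

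Arg1, the arginase of alternatively activated mouse macrophages, had the largest single fold change of the 9. In mouse the authors' deposited tables gave 3.83 ± 1.07 (rebuilt SE, FDR 0.0012) on day 5 and 5.16 ± 1.19 (FDR 0.00012) on day 2, which are 14.2-fold and 35.8-fold. Only 2.85% of risen entries rose more on mouse day 2. Its mean expression was low (logCPM 0.71), and its rebuilt errors were the widest of the members. It was not listed in Acomys on either day. Among 20 genes of arginine and polyamine metabolism, 2 were risen and 0 fallen in Acomys on day 5, against 7 risen and 8 fallen in mouse. On day 2, 1 was risen and 0 fallen in Acomys, against 6 risen and 6 fallen in mouse. Not listed in Acomys were 18 of the 20 on day 5 and 19 on day 2, against 5 on day 5 and 8 on day 2 in mouse. Of all symbols fallen in mouse, 5.2% on day 5 and 2.51% on day 2 were listed in Acomys. Arg2, the mitochondrial arginase, stood at 3.08 on day 5 and 3.91 on day 2 in mouse in the authors' deposited tables and was not listed in Acomys. Falls in mouse were deepest for Gatm, an enzyme of creatine synthesis in the proximal tubule (-3.22 on day 5 and -2.46 on day 2), and Ass1, the tubule enzyme that remakes arginine from citrulline (-2.99 on day 5 and -2.76 on day 2), in the authors' deposited tables. The Acomys entries were the polyamine enzyme gene Sat1, at 1.28 on both days, and the inducible nitric oxide synthase gene Nos2, at 1.44 on day 5, against 1.36 for Nos2 in mouse on day 5, in the authors' deposited tables.

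**Figure D2:**
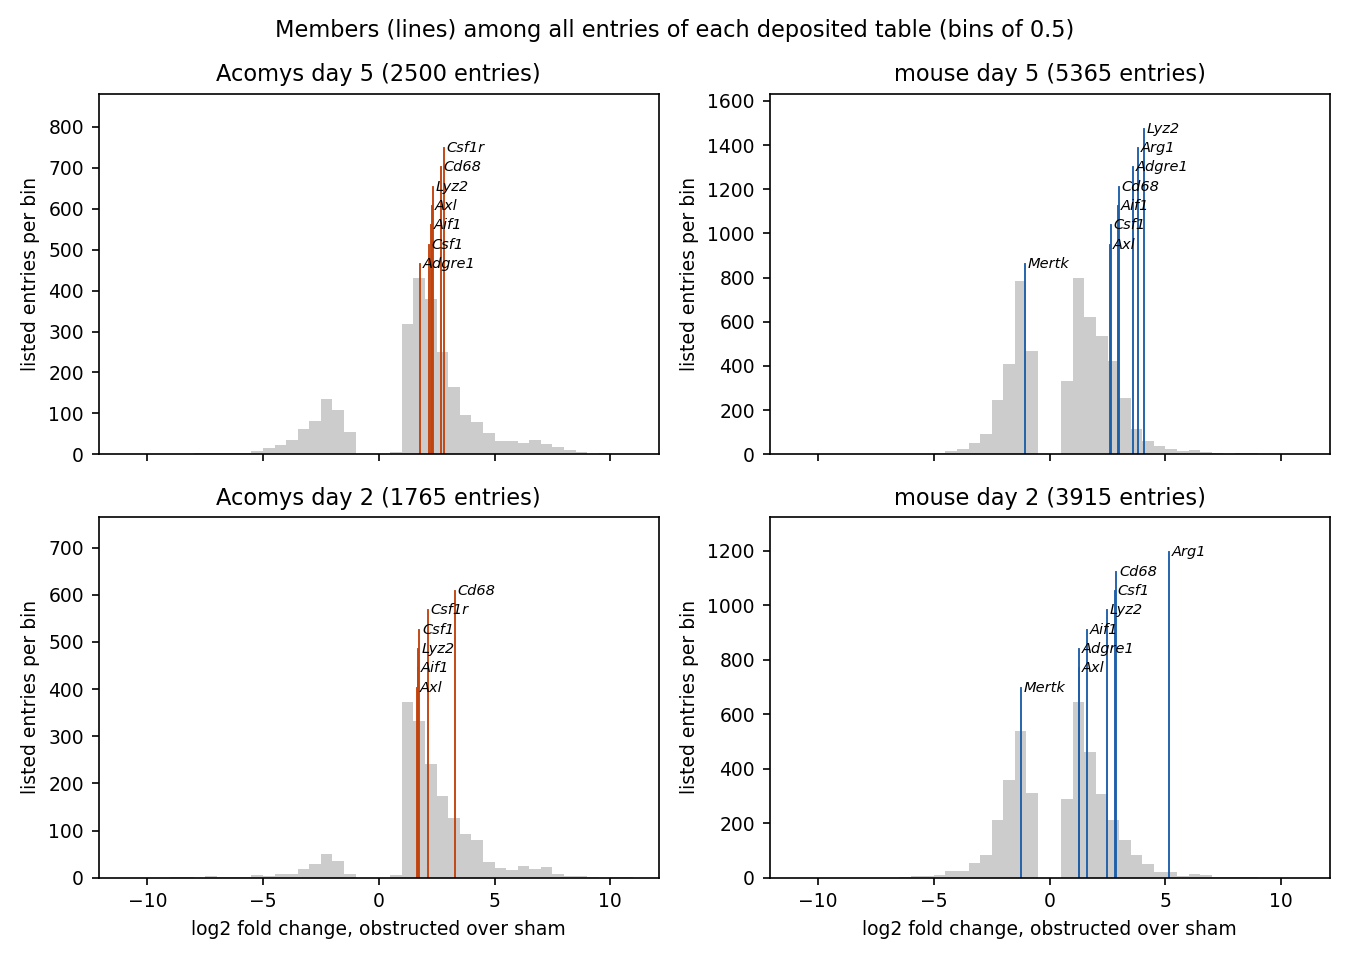
Grey bars count all entries of each deposited table in bins of 0.5 log2 fold change, obstructed over sham (Acomys left, mouse right, day 5 above day 2), and coloured lines mark the members. The Acomys members sit in the body of the rises, where 34% to 70.6% of risen entries rose more on day 5, while in mouse Lyz2 and Arg1 reach the upper tail (5.38% and 6.7% rose more on day 5).

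The next question was whether the response of these genes differed between species. The Acomys log2 fold change minus that of mouse was tested with the rebuilt errors over all symbols listed in both species, with two-sided p-values from normal quantiles and Benjamini-Hochberg adjustment. On day 5 all 6 members listed in both had the smaller value in Acomys, and 0 of the 6 passed, beside 5.14% of 1011 symbols (3.26% higher in Acomys and 1.88% higher in mouse). The difference was -1.83 for Adgre1 (95% interval -3.41 to -0.24, unadjusted p = 0.0241, adjusted p = 0.256) and -1.73 for Lyz2 (-3.31 to -0.16, unadjusted p = 0.0307, adjusted p = 0.293). For Csf1, Cd68, Aif1 and Axl it lay between -0.72 and -0.29. Over all 1011 symbols 42.2% were higher in Acomys and the median difference was -0.18. On day 2, 0 of 5 members passed, beside 5.08% of 729 symbols (3.98% higher in Acomys and 1.1% higher in mouse), and 3 of the 5 were higher in Acomys, as were 60.5% of all symbols. The widest gap was that of Csf1, at -1.07 (95% interval -2.46 to 0.32, adjusted p = 0.654). These calls rest on how the errors were rebuilt. In another setting the errors were rebuilt with Student t quantiles of 6 degrees of freedom, and the p-value of a difference used a Student t with more degrees of freedom. There Adgre1 (adjusted p = 0.000796), Lyz2 (6.32e-07) and Aif1 (0.0348) passed on day 5 and Csf1 (0.0037) and Lyz2 (0.00689) on day 2. Each had the smaller rise in Acomys, but 352 of all 1011 symbols passed on day 5 and 255 of 729 on day 2 at that setting. No source used here states the degrees of freedom behind the authors' p-values, and the calls for these members depend on that choice.

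Listing itself differed between species. On day 5, 6 of the 7 members risen in Acomys were also risen in mouse, beside 72.3% of all symbols risen in Acomys, and these 6 were among the 7 risen in mouse, beside 27.3% of all symbols risen in mouse. On day 2 the shared members were 5 of 6 in Acomys, beside 63.4% of all symbols risen in Acomys. In mouse they were 5 of 7, beside 30% of all symbols risen in mouse. Mertk, the member fallen in mouse, was not listed in Acomys, as held for most falls: 5.2% of symbols fallen in mouse on day 5 and 2.51% on day 2 were listed in Acomys. The Acomys tables were shorter, with 2500 and 1765 entries against 5365 and 3915 in mouse on days 5 and 2. Of the Acomys entries only 1406 on day 5 and 1121 on day 2 had a symbol, while all mouse entries had one. Listing compared between species rests on the entries with a symbol.

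**Figure D3:**
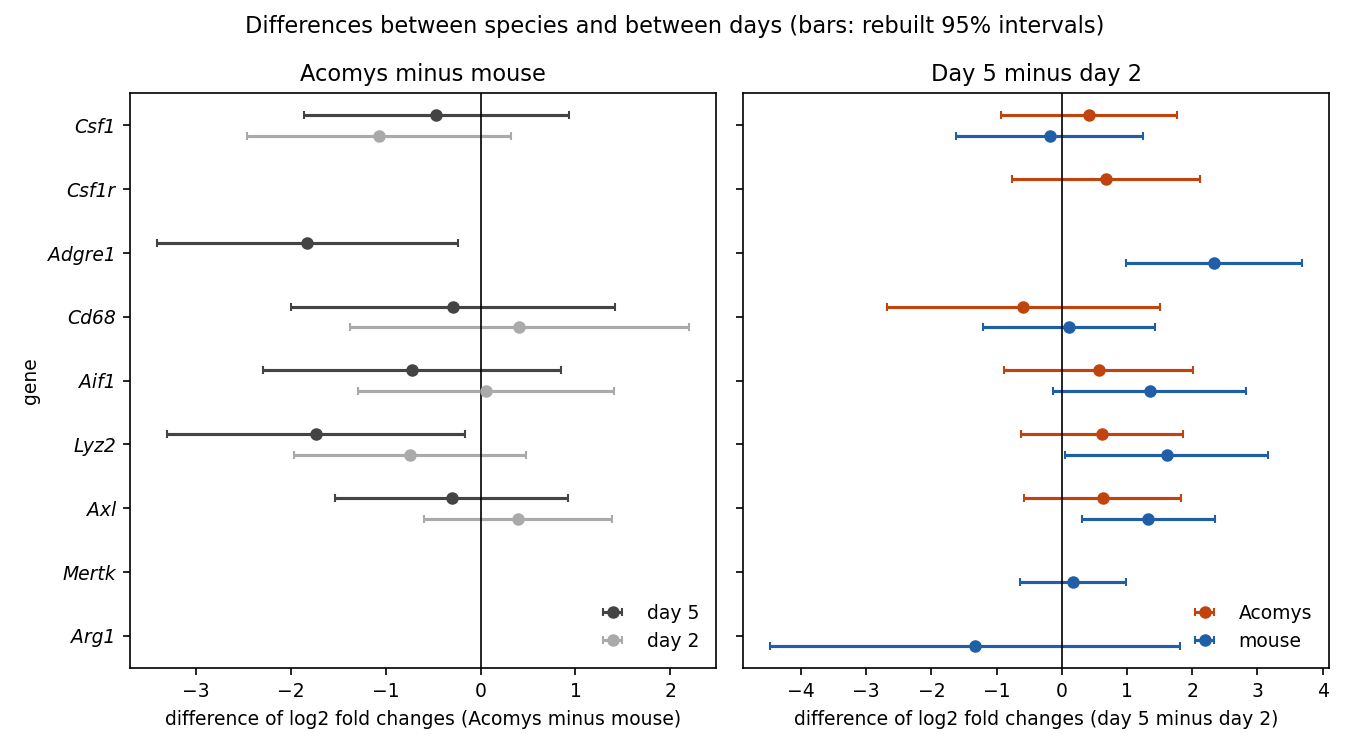
Differences of log2 fold changes with rebuilt 95% intervals from normal quantiles, Acomys minus mouse on each day (left) and day 5 minus day 2 in each species (right). The intervals of Adgre1 and Lyz2 on day 5 lie below 0 on the left, and those of Adgre1, Lyz2 and Axl in mouse lie above 0 on the right; no member passed after adjustment over all entries.

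Between the days, Adgre1, Lyz2, Aif1 and Axl had the larger value on day 5 in mouse, with 0 passing after adjustment. The day 5 minus day 2 difference of Adgre1 was 2.34 (95% interval 0.99 to 3.69), which is 5.06-fold, that of Lyz2 1.61 (0.05 to 3.17), that of Aif1 1.35 (-0.13 to 2.82) and that of Axl 1.33 (0.31 to 2.35). Cd68 (0.10), Mertk (0.17) and Csf1 (-0.19) stayed within 0.2 of 0, and Arg1 was lower on day 5 by a difference of -1.34 (95% interval -4.48 to 1.81). In Acomys 5 of the 6 members listed on both days were higher on day 5, by 0.42 (Csf1) to 0.68 (Csf1r), and Cd68 was lower (-0.59). Over all entries 55.1% in Acomys and 54.6% in mouse were higher on day 5. Of members listed on either day, 6 of 7 in Acomys and 8 of 8 in mouse were listed on both, beside 44.8% of Acomys entries and 57% of mouse entries.

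The 2 days share their sham libraries, which makes the errors of the difference too wide when treated as uncorrelated. In that form 0 of 6 members passed in Acomys and 0 of 8 in mouse, beside 0 of 1319 entries in Acomys and 0.0297% of 3369 entries in mouse. Before adjustment 0 members were below 0.05 in Acomys and 3 in mouse. The mouse ones were Adgre1 (adjusted p = 0.909), Axl and Lyz2. With a correlation of 0.5 between the days Adgre1 passed in mouse (adjusted p = 0.009), as 1 of 15 entries of 3369. With Student t quantiles Adgre1 (adjusted p = 0.00119), Lyz2 (0.000516), Axl (0.00153) and Aif1 (0.0245) passed in mouse, where 526 of all 3369 entries did, and 0 passed in Acomys, where 35 of 1319 entries did. Over these settings the adjusted p of Adgre1 in mouse ranged from 0.00119 to 0.909, and it was higher still with fewer assumed tests.

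Likeness of pattern was measured as the Euclidean distance between the 4 log2 fold changes of 2 genes, over the 579 other symbols listed in every table. The values within a species share sham libraries, so a small distance is a description. Nearest to Aif1 were the leukocyte kinase gene Pik3cd (distance 0.20), Cd48 (0.21) and the bacterial lipoprotein receptor gene Tlr1 (0.27). Nearest to Axl were the leukocyte adaptor gene Lcp2 (0.22), the phagocyte oxidase gene Cybb (0.23) and Plxnc1 (0.25). Lyz2 lay nearest to Arl11 (0.54), the monocyte chemokine receptor gene Ccr2 (0.60) and Cmtm3 (0.67). For Cd68 the nearest were E2f7 (0.27), Icam1 (0.30) and Bub1 (0.52), and for Csf1 the folate enzyme gene Mthfd1l (0.33), Klrg2 (0.42) and Pdlim7 (0.47).

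Markers of other cells moved alongside. Of 14 monocyte genes 6 were risen in Acomys and 9 in mouse on day 5, and 6 in Acomys and 7 in mouse on day 2; Ace, an angiotensin-converting enzyme also made by tubule and endothelium, was the fall in mouse on both days (-0.97 on day 5 and -1.01 on day 2 in the authors' deposited tables) and was among the rises in Acomys (2.62 on day 2 in the authors' deposited table). Among them Ccr2 was at 2.84 in Acomys and 3.95 in mouse on day 5 in the authors' deposited tables. Neutrophils also express Lyz2: of 16 neutrophil genes 4 were risen and 1 fallen in Acomys on day 5, against 6 risen and 0 fallen in mouse, and on day 2, 4 were risen in Acomys and 7 in mouse. The fall in Acomys was Cd177, a neutrophil surface protein gene. The 4 rises in Acomys were Lcn2, Il1r2, Ltf and Mmp9 on both days, of which Lcn2 (7.17 in Acomys and 6.36 in mouse on day 5 in the authors' deposited tables) is also made by injured tubules. S100a8 and S100a9 were listed as risen in mouse on both days (S100a9 at 3.10 on day 5 and 3.98 on day 2 in the authors' deposited tables) and were not listed in Acomys. Their logCPM in mouse was low (-0.61 for S100a8 and -0.29 for S100a9), and the FDR of S100a8 on day 5 was 0.046. Of the 16 neutrophil genes 10 were not listed in mouse on day 5 and 9 on day 2, among them Ly6g, Mpo, Camp, Ngp, Retnlg and Cxcr2. Fibroblasts and pericytes also express Axl and Csf1. Of 14 of their genes 10 were risen in Acomys and 13 in mouse on day 5, and 10 in Acomys and 8 in mouse on day 2, with 0 fallen. Of 15 dendritic cell genes 3 were risen in Acomys and 11 in mouse on day 5, and 1 in Acomys and 5 in mouse on day 2, and Kmo was the 1 fall, in mouse on both days. T and B cell genes (15) gave 5 rises in Acomys (1 at an FDR under 0.01) and 9 in mouse on day 5, and 1 in Acomys and 2 in mouse on day 2. Of 14 endothelial genes 13 were not listed in Acomys and 13 in mouse on day 5, and 14 in Acomys and 13 in mouse on day 2. Kidney epithelial genes (16) gave 5 falls in Acomys (2 at an FDR under 0.01) and 9 in mouse on day 5, and 0 in Acomys and 9 in mouse on day 2. The part of these cells in the values of the members was not tested.

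**Figure D4:**
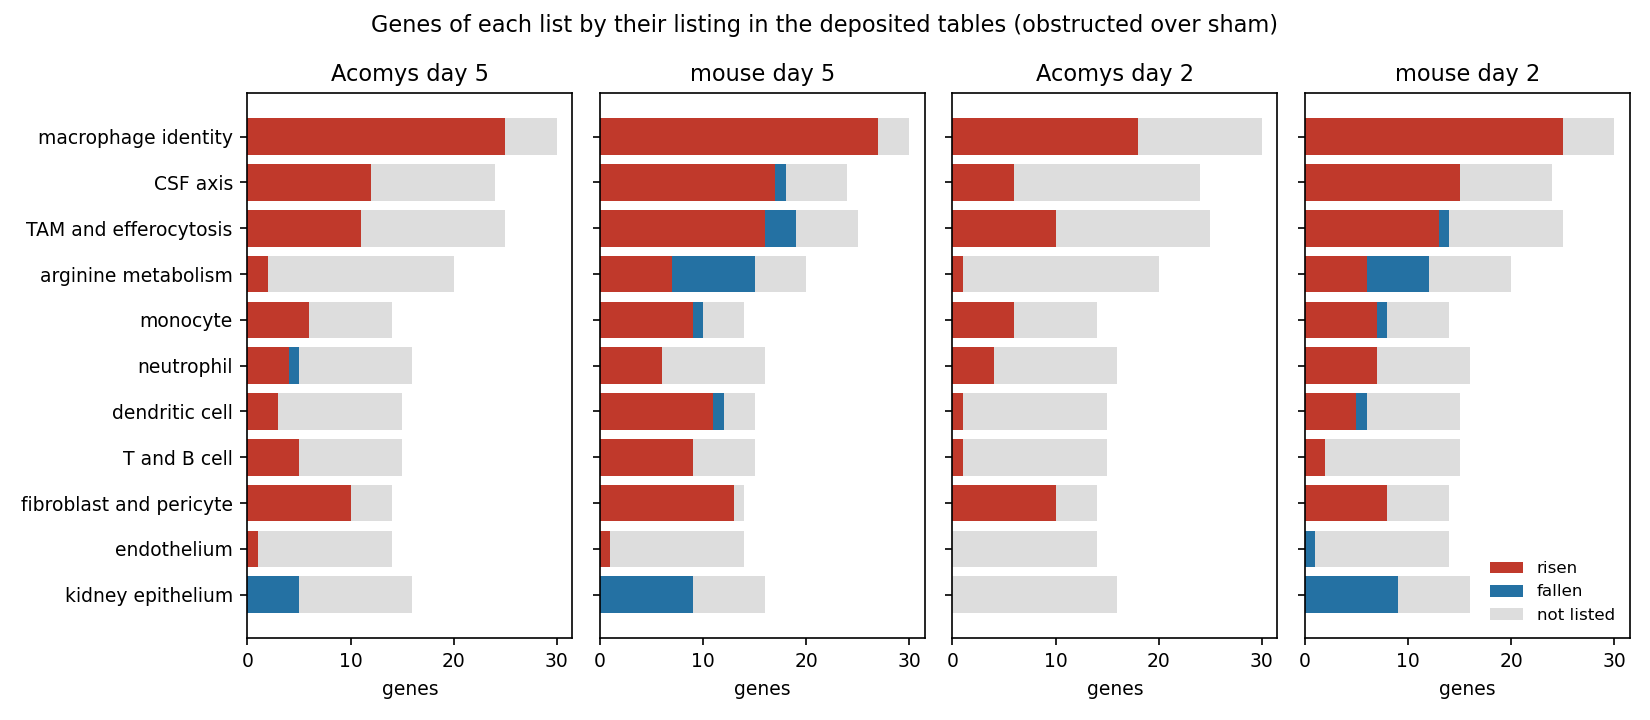
Number of genes of each list that were listed as risen, fallen or not listed in each deposited table, obstructed over sham, at an FDR under 0.05. Macrophage identity genes gave 25 rises in Acomys and 27 in mouse on day 5. Arginine metabolism held 8 falls in mouse and 0 in Acomys on day 5, where 18 of its 20 genes were not listed in Acomys and 5 in mouse.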

How the data were processed

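Kidney RNA of 18 libraries (3 in each of 6 groups, set by the titles in the labels) was sequenced by the authors. The submitters' processing notes list Salmon, edgeR and mm9 (a mouse genome build), without roles. Per the file headers each deposited table holds a log2 fold change (base taken from the tool named, direction from the table's name), a logCPM, which is the log2 of the authors' mean CPM, and an FDR, an adjusted p-value of the authors. Tool versions, settings and the Acomys reference: not given in the sources used here. Acomys entries are numbered loci, many with the protein name of a mouse, rat or other species, and part of them also carry a mouse symbol.

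No gene was refitted. The p-value behind an FDR was rebuilt as FDR times rank over 10000 assumed tests, and the SE as the fold change over its normal quantile (Python 3.11.15, pandas 2.3.3, scipy 1.17.1, figures with matplotlib 3.10.9). The tests were also run on simulated data, and those runs are not taken here as showing that the tests are sound. Entries of each species were matched by symbol. Promoter windows came from RefSeq on GRCm38.p6, another build than the one the notes list, and were used for sequence only. Alternatives were an FDR under 0.01, a change of at least 1, matching by Entrez ID, 20000 or fewer assumed tests, Student t quantiles and a correlation of 0.5 between days. The genes named were the 9 members, some but not all of the 2 highest and 2 lowest of each list, and the 3 nearest patterns. In the macrophage list, for example, Ms4a6d (4.33 in Acomys on day 5) and Msr1 (4.23 in mouse on day 2) were the highest and were not described. Most other names are marked. Members, lists and tests were chosen with earlier results of these data known. The replicates are separate libraries in the labels. The authors' p-values measure the spread between them, which the sources used here do not describe further. The p-values of species and day differences rest on the rebuilt errors, and so also on the assumed number of tests and the quantiles chosen.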

Additional observations from a re-analysis of the deposited data

How the results depend on the processing

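The counts of members listed as risen or fallen stayed within 1.5 times under all 24 alternatives (an FDR under 0.01, an absolute log2 fold change of at least 1, and rows found by Entrez ID). Only the stricter FDR could lower a count. The member value closest to 0 was that of Mertk in mouse on day 5 (-1.09), and the Entrez IDs came from rows already found by symbol. Under the stricter FDR 6 members remained risen in Acomys on day 5, since the FDR of Adgre1 there was 0.011. The counts of members that differed between species or days depended on the quantiles used to rebuild the errors. With Student t quantiles 3 members differed between species on day 5 and 2 on day 2, and 4 differed between days in mouse, against 0 with normal quantiles in each; at that setting 352 of 1011, 255 of 729 and 526 of 3369 of all features passed too. With a correlation of 0.5 between the days, 1 member (Adgre1) differed in mouse, among 15 of 3369 entries. The other numbers of assumed tests gave 0 members in each comparison. The matching by Entrez ID and the locus with the lowest FDR also gave 0 members between species. These last 2 settings left every member p-value as in the main setting, so they put nothing to a test. The member differences had the same values in every setting, so their direction was not put to a test. For single lists 12 alternatives moved a count by over 1.5 times and 164 did not. At an FDR under 0.01 the T and B cell rises in Acomys on day 5 numbered 1, against 5, and the kidney epithelial falls 2, against 5; the others that moved had main counts of 1 or 2. No paired analysis was possible because the deposited tables hold no values per library, and for the same reason no replicate could be left out and another pseudocount, filter or normalization could not be tried. Depth is unknown, so how far it limits the listing of low genes such as Arg1 cannot be given.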

Other observations

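Of the close relatives of the members, 3 not described above were each listed in 1 of the 4 tables; they were chosen after their values were seen. Adgre5, the leukocyte gene CD97, was listed in Acomys on day 5 at a log2 fold change of 1.22 (FDR 0.0054) in the authors' deposited table. Adgre4, another member of the F4/80 family, was listed in mouse on day 5 at 2.08 (FDR 0.0097) with a low logCPM of -1.10 in the authors' deposited table. Aif1l, the paralogue of Aif1, was listed in Acomys on day 5 at -1.63 (FDR 0.028) in the authors' deposited table, while Aif1 itself was at 2.25.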
